A study of Mus musculus with 9 samples.

Results

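The expression of 34 genes that mark or act in uterine natural killer (NK) cells was followed in the uteri of mice with and without a deletion in *Wnk1*, the gene of the kinase WNK1 (with no lysine 1). The members are named by gene symbol, in a list drawn up with earlier results of these data known, and all 34 symbols were found among the 31274 entries of the expression table. Of these, 29 passed the filter of the test, which kept 14728 entries with a mean above 1 FPKM (fragments per kilobase of transcript, scaled to the mapped fragments of the library) in at least 1 genotype. *Klrc1*, *Gzmf*, *Gzmg*, *Ifng* and *Il12rb2* were below it. Of the 29, 28 had a mean above 1 FPKM in both genotypes, and *Cd160* passed only through its *Wnk1f/f* mean.

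RNA-seq had been carried out on whole uterus of C57BL/6 mice at pseudopregnancy day 4.5, a time when the uterus would be receptive to an embryo but holds none. Pseudopregnancy was induced by mating virgin females with vasectomized males. The 4 control libraries were from *Wnk1f/f* mice, in which loxP sites flank exon 2 of *Wnk1*, and the 5 others from *Wnk1d/d* mice, which carry the same floxed alleles plus a Cre recombinase under the progesterone receptor promoter. Each library was made from 1 mouse. The Cre is active in cells that have used the progesterone receptor promoter, which include uterine stroma, epithelium and muscle but also cells of the ovary and the pituitary, while NK cells are not its intended target. The measurements are of tissue RNA, so they do not say in which cells *Wnk1* was lost. *Wnk1* itself was at 45.3 ± 1.62 FPKM (SD, n = 4) in *Wnk1f/f* and 31.2 ± 1.62 FPKM (SD, n = 5) in *Wnk1d/d* (log2 fold change -0.52, SE 0.06, limma adjusted p = 0.00167). The ranges of the genotypes did not overlap, but the ratio of the means was short of the 1.5 used below for a call.

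Uterine NK cells are lymphocytes that live in the endometrium and multiply around the implantation site, where they help to remodel the spiral arteries. They read other cells through activating and inhibitory receptors, many of them lectin-like proteins of the NK gene complex, and store perforin and granzymes in granules. Their survival depends on interleukin 15 that stromal and myeloid cells hold on interleukin 15 receptor alpha and present to the receptor beta chain on the NK cell, and their identity rests on the T-box factors Eomes and T-bet.

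In the 9 libraries the members were readily seen but at moderate levels, from a mean of 0.196 FPKM to a mean of 41.8 FPKM, and no member was at 0 in any library. The 9 members chosen as defining markers were *Ncr1*, *Klrb1c*, *Klrk1*, *Eomes*, *Tbx21*, *Prf1*, *Gzma*, *Nkg7* and *Il2rb*. They summed to 90.5, 173, 185 and 199 FPKM in *Wnk1f/f* replicates 1 to 4 and to 130, 122, 158, 95.8 and 132 FPKM in *Wnk1d/d* replicates 1 to 5. Being members themselves, these 9 genes describe the level of the list and cannot test its NK cell label. Some of these genes are also used by cytotoxic T cells. In whole tissue, fewer NK cells and less of these RNAs per NK cell cannot be told apart. Per-library values are given below in that same order of replicates, and fold changes are differences of mean log2(FPKM + 1), *Wnk1d/d* minus *Wnk1f/f*, a scale that understates the change of genes near or below 1 FPKM.

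One library stood apart and was also left out. In *Wnk1f/f* replicate 4, several marker sums were the highest of the 9 libraries, among them T cell, B cell and plasma cell, lymphoid organ stroma, and fat and liver. The sums of NK cell markers (199 FPKM), macrophage and dendritic cell markers (519 FPKM) and neutrophil markers (9.23 FPKM) were highest there too. Macrophage and dendritic cell markers summed to at most 469 FPKM elsewhere, and neutrophil markers to at most 7.28 FPKM. Smooth muscle markers were lowest there, at 2970 FPKM, against 4330 FPKM or more elsewhere. The T cell markers summed to 38.0 FPKM, against 4.47 to 13.7 FPKM in the other *Wnk1f/f* libraries and 3.7 to 12.8 FPKM in *Wnk1d/d*. *Cd3e*, a chain of the T cell receptor complex, was at 4.33 FPKM there and at most at 1.05 FPKM elsewhere. Markers of fat and liver summed to 116 FPKM in that library, against 10.3 to 12.2 FPKM in the other *Wnk1f/f* libraries and 20.8 to 35.5 FPKM in *Wnk1d/d*. That list did not move together, and the sum rests on genes other than *Fabp4*. *Fabp4* was at 1.81 FPKM there, against 2.44 to 5.69 FPKM in the other *Wnk1f/f* libraries and 7.11 to 18.08 FPKM in *Wnk1d/d*. Markers of lymphoid organ stroma summed to 20.3 FPKM in *Wnk1f/f* replicate 4 and to at most 9.07 FPKM in any other library. *Ltb* alone was at 18.22 FPKM in replicate 4, so that sum rests mostly on 1 gene and does not by itself show stroma. B cell and plasma cell markers summed to 100 FPKM in replicate 4 against 14 to 75 FPKM in the other libraries, while *Ms4a1*, a surface protein of B cells, was at or near 0 in all 9 libraries. Because T cells use several of the members, the comparisons of members and of gene lists are given with and without this library, and the part of these other cells in the results was not tested. In *Wnk1d/d* replicate 4 a single entry held 70.3% of the summed FPKM, but its median over the tested entries, 3.79 on the log2 scale, was close to the 3.8 to 3.82 of the other libraries.

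**Figure D1:**
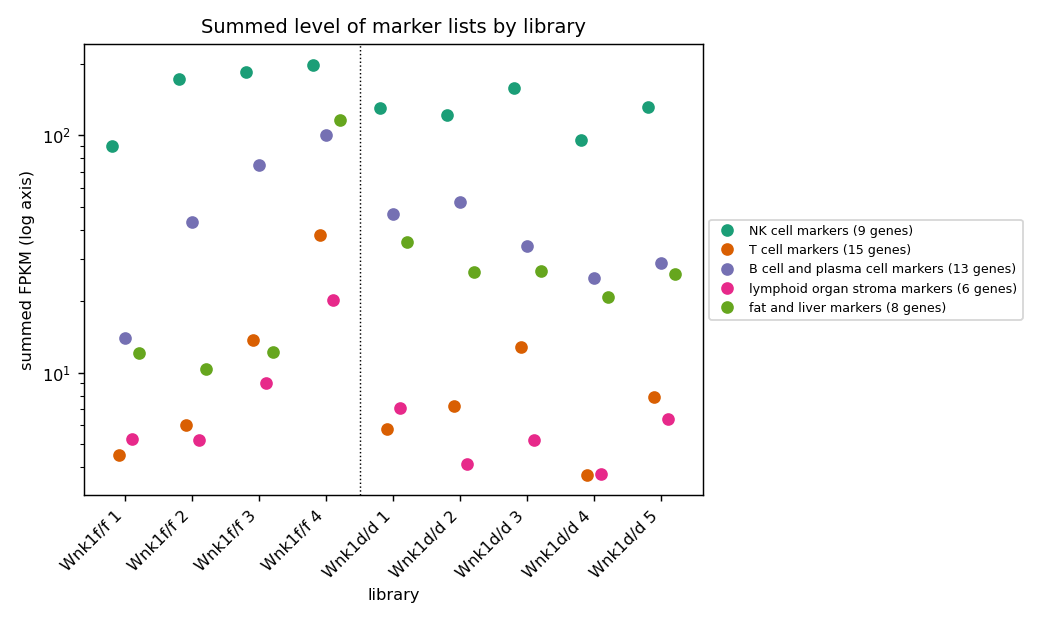
Summed FPKM (log axis) of 5 marker lists in each of the 4 *Wnk1f/f* and 5 *Wnk1d/d* libraries, 1 point for each list and library. NK cell markers lay between 90.5 and 199 FPKM, while T cell markers reached 38.0 FPKM and fat and liver markers 116 FPKM in *Wnk1f/f* replicate 4.

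Sequence before the start of 5 members is shown for what lies in it: *Ncr1* and *Nkg7*, which ranked the libraries in the same order, and *Gzma*, *Gzmd* and *Gzme*, granzymes that ranked them otherwise. The 250 bases before the RefSeq start are given 5′ to 3′ on the gene's strand (GRCm38.p6, the patch release of mm10). Capitals mark core motifs of families of factors known to act in lymphocytes, searched on both strands: RUNX (ACCACA), ETS (GGAAGT), T-box (TCACACC) and STAT5 (TTCCNGGAA). No matches overlapped in these windows, and a match describes letters, not binding.
*Ncr1* (chr7:4337465-4337714, plus strand): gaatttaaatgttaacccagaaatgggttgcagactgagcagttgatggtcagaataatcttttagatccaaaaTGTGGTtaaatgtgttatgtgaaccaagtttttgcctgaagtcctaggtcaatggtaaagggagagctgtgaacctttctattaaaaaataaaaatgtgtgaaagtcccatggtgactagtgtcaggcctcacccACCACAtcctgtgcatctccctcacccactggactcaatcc
*Nkg7* (chr7:43436888-43437137, plus strand): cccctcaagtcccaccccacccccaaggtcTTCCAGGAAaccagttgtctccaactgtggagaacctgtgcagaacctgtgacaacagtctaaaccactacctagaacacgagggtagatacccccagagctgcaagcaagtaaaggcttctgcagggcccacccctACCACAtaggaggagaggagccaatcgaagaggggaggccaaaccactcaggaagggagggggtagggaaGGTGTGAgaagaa
*Gzma* (chr13:113100982-113101231, minus strand): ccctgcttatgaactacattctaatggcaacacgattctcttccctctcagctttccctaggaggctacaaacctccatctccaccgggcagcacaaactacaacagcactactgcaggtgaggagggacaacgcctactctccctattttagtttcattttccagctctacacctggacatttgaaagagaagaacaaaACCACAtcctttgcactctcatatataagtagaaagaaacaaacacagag
*Gzmd* (chr14:56132594-56132843, minus strand): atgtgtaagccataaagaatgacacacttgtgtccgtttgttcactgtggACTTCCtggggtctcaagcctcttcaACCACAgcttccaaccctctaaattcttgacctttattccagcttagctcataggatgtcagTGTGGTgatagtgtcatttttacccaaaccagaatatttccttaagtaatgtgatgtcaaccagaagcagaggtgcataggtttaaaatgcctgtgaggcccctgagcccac
*Gzme* (chr14:56120626-56120875, minus strand): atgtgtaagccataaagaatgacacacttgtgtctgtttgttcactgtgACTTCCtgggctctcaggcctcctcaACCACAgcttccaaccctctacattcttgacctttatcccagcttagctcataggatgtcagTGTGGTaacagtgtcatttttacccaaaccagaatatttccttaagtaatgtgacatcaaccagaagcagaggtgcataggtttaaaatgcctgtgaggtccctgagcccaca
All 5 windows hold the RUNX letters. Of the 34 members, 26 had a promoter in the RefSeq table, and over windows of 300 bases (250 before to 50 after the start) 18 of the 26 held the RUNX letters (69.2%), against 18.9% of the 27025 genes in the table. The ETS letters were in 16 members (61.5%, against 26.5% of all genes), the T-box letters in 3 (11.5%, against 4.6%) and the STAT5 letters in 1, *Nkg7* (3.85%, against 1.35%). All 7 granzymes held the RUNX letters, *Gzmc* to *Gzmg* held the ETS letters as well, and none held the T-box or STAT5 letters. The windows of *Gzmc* to *Gzmg* are 86.1% to 94.0% identical to each other. These 5 genes are therefore not separate cases in the RUNX share or in the ETS share.

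Across the list, the means were lower in *Wnk1d/d* for nearly every member, but few members passed the test. The log2 fold change was below 0 for 28 of the 29 tested members, with a median of -0.44, while 49.5% of all 14728 tested entries were below 0, with a median of 0.00. Leaving *Cd160* aside, 27 of the 28 members above 1 FPKM in both genotypes were below 0. The 29 genes were measured in the same 9 mice and share a cell type, so their number is not a number of replicates. A call needed an adjusted p under 0.05 together with means that differed by a ratio of 1.5 or more, and 2 members were called lower, *Ctsw* and *Eomes*, and 0 higher. That is 6.9% of the members, against 5.18% of all entries called lower, so the share called was near the background (5.09% of all entries were called higher). By the adjusted p alone, 4 members passed, *Ctsw*, *Eomes*, *Klrg1* and *Il15ra*, or 13.8% against 11.0% of all entries. An unadjusted p under 0.05 with a lower mean was found for 11 members (37.9%, against 18.8% of all entries), and with a higher mean for 0. The genotypes did not overlap for 2 members, *Cd244* and *Il15ra*, or 6.9% against 10.6% of all entries.

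Without *Wnk1f/f* replicate 4, 28 members were tested, *Cd160* having dropped under the filter, and 25 of them were below 0, with a median of -0.32. Then 0 members were called by limma in either direction, against 3.52% of all entries called lower and 3.57% called higher, and 0 passed the adjusted p alone, against 6.20%. An unadjusted p under 0.05 was left for 4 members, *Ctsw*, *Eomes*, *Klrg1* and *Il15ra* (14.3%, against 15.9% of all entries). The genotypes did not overlap for the same 2 members (12.1% of all entries). The count of called members also moved with other libraries. It was 9 of 29 without *Wnk1f/f* replicate 1 (31.0%, against 4.58% of all entries called lower in that fit). It was 1 without *Wnk1f/f* replicate 2 (*Eomes*, against 4.49%) and 1 without *Wnk1d/d* replicate 2 (*Ctsw*, 6.82%). It was 2 without *Wnk1d/d* replicate 5 (4.07%), *Klrg1* and *Ctsw*, with *Eomes* no longer called. It was 0 without *Wnk1f/f* replicate 3 (5.09%) or *Wnk1d/d* replicate 1 (3.92%), 3 (3.39%) or 4 (4.44%). In those fits, in that order, limma gave an unadjusted p under 0.05 with a lower level for 7 (23.3%), 12 (41.4%), 12 (41.4%) and 9 (31.0%) members. Over all entries it did so for 2655 of 14765, 2496 of 14730, 2358 of 14716 and 2533 of 14726.

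**Figure D2:**
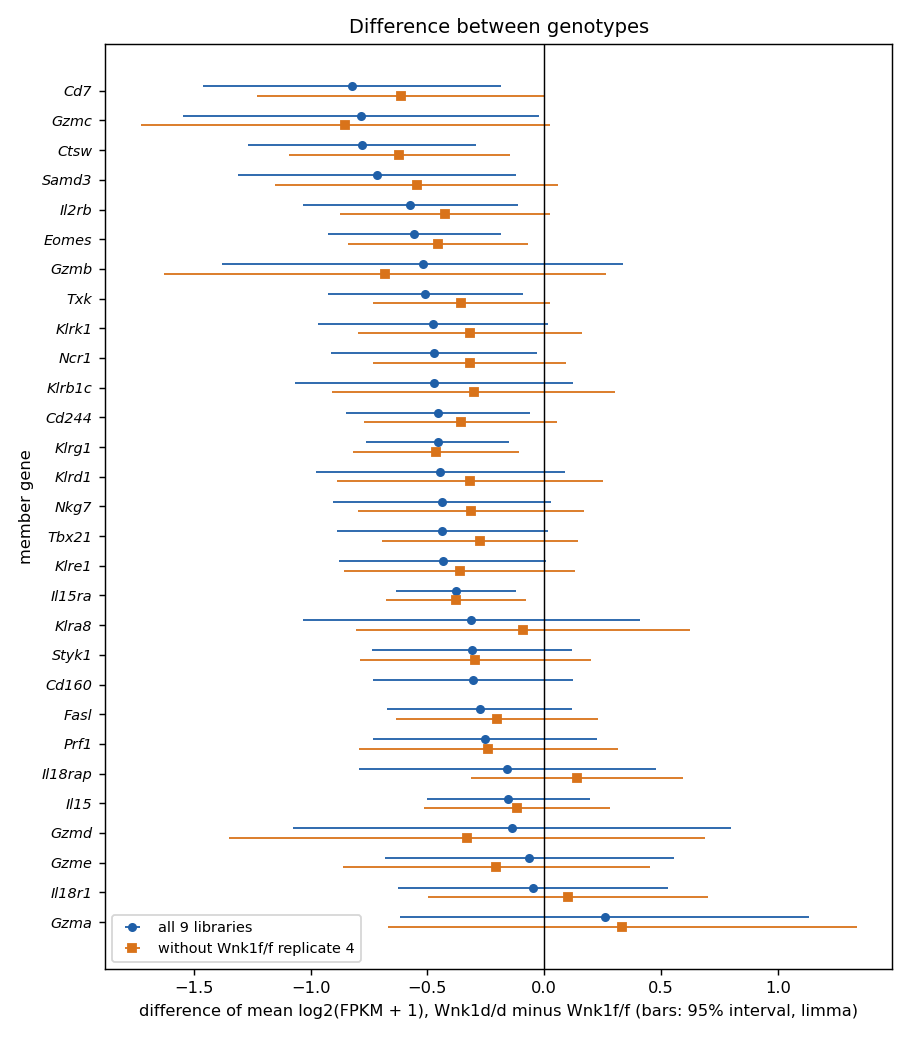
Difference of mean log2(FPKM + 1), *Wnk1d/d* minus *Wnk1f/f*, for the 29 tested members with 95% intervals from limma, from all 9 libraries (circles) and without *Wnk1f/f* replicate 4 (squares, 28 members). All members but *Gzma* lie below 0 with all libraries, and *Gzma*, *Il18r1* and *Il18rap* lie above 0 without replicate 4.

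The receptors had lower mean levels in *Wnk1d/d* throughout, with 10 of 10 tested below 0 (median -0.46) and 9 of 9 without *Wnk1f/f* replicate 4 (median -0.32), but 0 of them were called by limma in either case, with an unadjusted p under 0.05 for 4 and then for 1. *Ncr1* encodes NKp46, an activating receptor that defines NK cells and related innate lymphocytes. It was at 12.5, 15.1, 22.1 and 25.3 FPKM in the *Wnk1f/f* libraries and 14.4, 10.9, 13.9, 10.5 and 14.6 FPKM in the *Wnk1d/d* libraries. *Wnk1f/f* replicates 2, 3 and 4 were above every *Wnk1d/d* library, while *Wnk1f/f* replicate 1 lay within the *Wnk1d/d* range. The log2 fold change was -0.47 (SE 0.20, limma adjusted p = 0.108), and -0.32 (SE 0.18, limma adjusted p = 0.265) without replicate 4. *Klrg1*, an inhibitory receptor that binds cadherins, was at 5.97, 10.5, 8.55 and 7.95 FPKM in the *Wnk1f/f* libraries and 5.17, 5.74, 5.78, 5.0 and 6.61 FPKM in the *Wnk1d/d* libraries. Here replicate 4 was not the highest control, and a single overlap remained, *Wnk1f/f* replicate 1 lying below *Wnk1d/d* replicate 5. The log2 fold change was -0.46 (SE 0.14, limma adjusted p = 0.0411) and the exact two-sided permutation p was 0.0159, where 0.00794 is the smallest that 4 against 5 libraries allow. It stayed at -0.46 (SE 0.16, limma adjusted p = 0.0853) without replicate 4, so the size did not depend on that library and the adjusted p rose above the threshold. *Cd244*, the 2B4 receptor for CD48, was at 2.53, 2.2, 2.56 and 3.51 FPKM in the *Wnk1f/f* libraries and 2.18, 1.01, 2.12, 1.18 and 2.15 FPKM in the *Wnk1d/d* libraries. All *Wnk1f/f* values were above all *Wnk1d/d* values, by as little as 2.2 against 2.18 FPKM, and the log2 fold change was -0.46 (SE 0.18, limma adjusted p = 0.0877), or -0.36 (SE 0.18, limma adjusted p = 0.215) without replicate 4.

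*Klrd1* (CD94) pairs with the NKG2 proteins, of which *Klrc1* (NKG2A) gives an inhibitory receptor for a nonclassical class I molecule. *Klrd1* was at 12.3, 15.2, 23.1 and 23.5 FPKM in *Wnk1f/f* and 15.5, 10.6, 15.4, 8.49 and 16.3 FPKM in *Wnk1d/d*. *Klrc1* was much lower, at 0.15, 0.28, 0.38 and 0.45 FPKM in *Wnk1f/f* and 0.07, 0.05, 0.18, 0.09 and 0.11 FPKM in *Wnk1d/d*, and below the filter. In the fit without a filter *Klrc1* was called lower by limma (log2 fold change -0.25, SE 0.07, adjusted p = 0.0363), the only member called there, against 4.19% of all 21949 entries called lower there, and *Ctsw* and *Eomes* were not called in that fit. Without both the filter and replicate 4, 0 members were called, against 2.36% of all entries (*Klrc1* -0.20, adjusted p = 0.0845). Its value is uncertain, since 24.9% of the 75-base stretches of its transcripts, the length of a read, are also in *Klrc2* or *Klrc3*. *Klrk1* (NKG2D), the receptor for stress-induced ligands, was at 6.22, 7.99, 11.1 and 13.3 FPKM in *Wnk1f/f* and 7.7, 5.83, 7.24, 4.22 and 7.64 FPKM in *Wnk1d/d*. *Klrb1c* (NK1.1), the usual surface marker of NK cells in C57BL/6 mice, was at 3.07, 3.46, 5.38 and 6.8 FPKM in *Wnk1f/f* and 4.97, 1.79, 2.9, 2.04 and 3.89 FPKM in *Wnk1d/d*, with 13.2% of its 75-base stretches shared with *Klrb1a*, *Klrb1b* and *Gm44511*. Like *Ncr1*, these 4 genes were highest in *Wnk1f/f* replicate 4 and lowest in *Wnk1d/d* replicate 2 or 4. *Klre1*, an NK receptor that pairs with other lectin-like chains, was at 8.52, 10.6, 17.3 and 14.4 FPKM in *Wnk1f/f* and 9.95, 8.12, 10.7, 6.53 and 9.48 FPKM in *Wnk1d/d*. *Klra8* (Ly49H), which recognizes a cytomegalovirus protein, was at 4.17, 1.63, 4.94 and 7.01 FPKM in *Wnk1f/f* and 4.31, 1.66, 3.68, 2.34 and 4.01 FPKM in *Wnk1d/d*, and 3.62% of its stretches are shared with *Klra9* and *Klra10*. Its lowest library in each genotype was replicate 2, the *Wnk1f/f* one at 1.63 and the *Wnk1d/d* one at 1.66 FPKM. *Cd244* was also lowest in these 2 mice. *Cd160*, a receptor for the herpesvirus entry mediator, was at 0.90, 0.73, 1.34 and 2.17 FPKM in *Wnk1f/f* and 1.14, 0.61, 1.0, 0.50 and 0.83 FPKM in *Wnk1d/d*. *Cd7*, an immunoglobulin-family protein of NK and T cells, was at 21.2, 29.2, 34.6 and 50.5 FPKM in *Wnk1f/f* and 22.5, 12.1, 20.7, 12.3 and 25.7 FPKM in *Wnk1d/d*. It had the largest receptor difference, -0.82 (SE 0.28, limma adjusted p = 0.0651), and -0.61 (SE 0.27, limma adjusted p = 0.163) without replicate 4, where it was at 50.5 FPKM. For *Klrd1*, *Klrk1*, *Klrb1c*, *Klre1*, *Klra8* and *Cd160* the log2 fold changes ran from -0.48 to -0.30, with limma adjusted p from 0.137 to 0.498. Except for *Cd160*, which was then under the filter, they ran from -0.36 to -0.09 without replicate 4.

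Of the 34 members, 9 lie on chromosome 6, and 7 of these, *Klrb1c*, *Klre1*, *Klrd1*, *Klrk1*, *Klrc1*, *Klra8* and *Styk1*, lie in the region of the NK gene complex, from 128778485 (*Klrb1c*) to 131353597 (*Styk1*) in the GENCODE M21 annotation of GRCm38. *Klrg1* lies outside this group on the same chromosome, at 122270596.

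**Figure D3:**
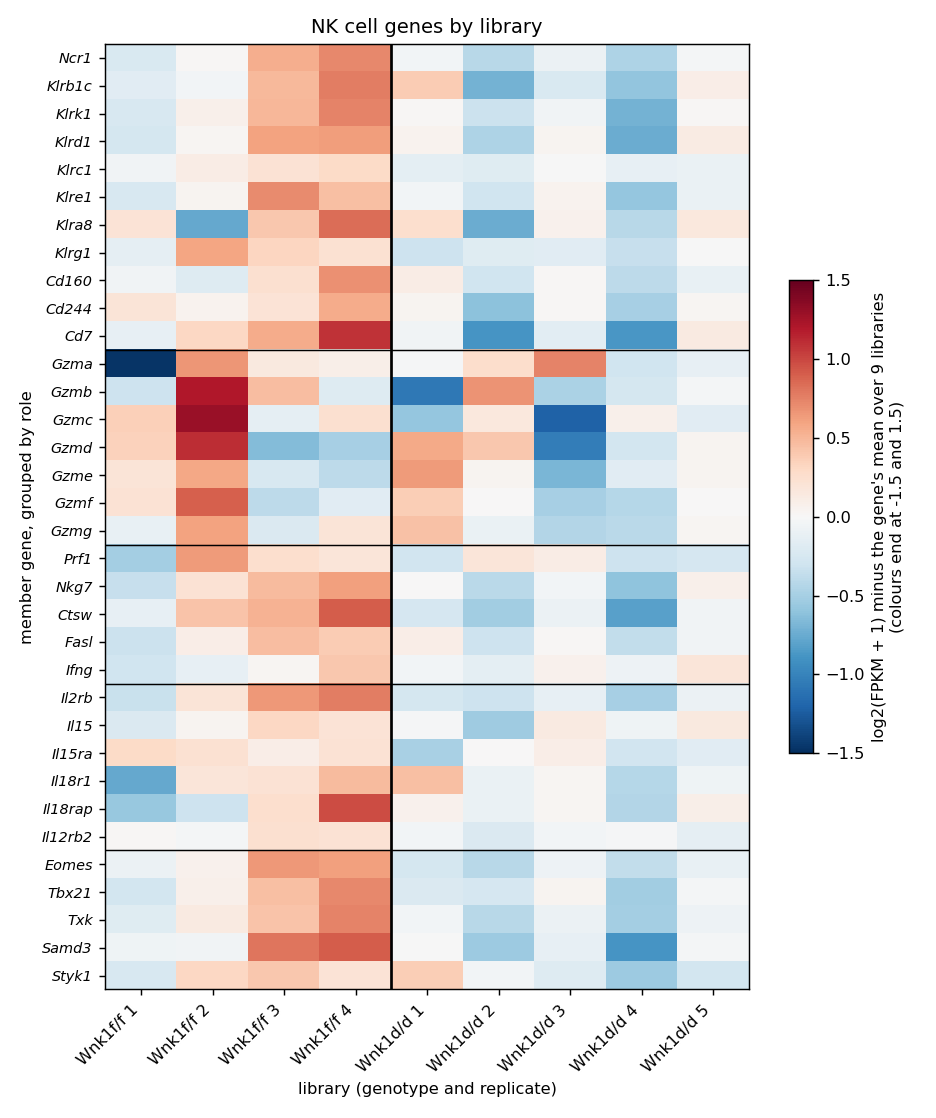
Log2(FPKM + 1) of each of the 34 members in each library, minus the member's mean over the 9 libraries, in colour from blue (low) to red (high), grouped by role in the order receptors, granzymes, other effectors, cytokine receptors and *Il15*, and transcription factors and signalling. *Wnk1f/f* replicates 3 and 4 are red for most members, *Wnk1f/f* replicate 1 and *Wnk1d/d* replicates 2 and 4 are blue, and the granzymes follow another order, with *Wnk1f/f* replicate 2 the highest control.

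The granzymes, serine proteases released from the granules into target cells, varied widely between mice of 1 genotype, and 0 of 5 tested were called by limma with or without *Wnk1f/f* replicate 4 (an unadjusted p under 0.05 for 1 and 0). *Gzma*, the most abundant of them, was at 13.4, 61.6, 43.1 and 41.1 FPKM in the *Wnk1f/f* libraries and 38.4, 46.8, 65.5, 31.2 and 35.5 FPKM in the *Wnk1d/d* libraries. *Wnk1f/f* replicate 1 was the lowest of the 9 libraries and *Wnk1d/d* replicate 3 the highest, and *Gzma* was the only member with a log2 fold change above 0, 0.26 (SE 0.39, limma adjusted p = 0.655), with a 95% interval of -0.62 to 1.13. Without replicate 4 it was 0.33. *Gzmb*, the granzyme that activates caspases, was at 16.9, 50.1, 29.7 and 18.4 FPKM in the *Wnk1f/f* libraries and 9.55, 34.4, 15.1, 17.6 and 20.9 FPKM in the *Wnk1d/d* libraries. Its highest library was *Wnk1f/f* replicate 2 and its lowest *Wnk1d/d* replicate 1, with a log2 fold change of -0.52 (SE 0.38, limma adjusted p = 0.340) and an interval of -1.38 to 0.34, and -0.68 (SE 0.42, limma adjusted p = 0.294) without replicate 4. *Gzmc*, of the group *Gzmc* to *Gzmg* known from activated killer cells and from the pregnant uterus, was at 5.68, 11.8, 3.75 and 5.17 FPKM in the *Wnk1f/f* libraries and 2.49, 4.86, 1.25, 4.5 and 3.64 FPKM in the *Wnk1d/d* libraries. Its log2 fold change was -0.78 (SE 0.34, limma adjusted p = 0.121), and -0.85 (SE 0.39, limma adjusted p = 0.170) without replicate 4, among the largest in the list, but *Wnk1f/f* replicate 3 lay below *Wnk1d/d* replicates 2 and 4. *Gzmd* was at 3.65, 6.88, 1.33 and 1.58 FPKM in the *Wnk1f/f* libraries and 4.4, 3.84, 0.78, 2.01 and 2.76 FPKM in the *Wnk1d/d* libraries, and *Gzme* at 1.31, 2.0, 0.70 and 0.54 FPKM in *Wnk1f/f* and 2.13, 1.07, 0.25, 0.79 and 1.07 FPKM in *Wnk1d/d*. *Wnk1d/d* replicate 1 was above 3 of the 4 *Wnk1f/f* libraries for *Gzmd* and above all 4 for *Gzme*, and the log2 fold changes were -0.14 and -0.06 with limma adjusted p of 0.833 and 0.885, and -0.33 and -0.20 without replicate 4. *Gzmf* ran from 0.11 to 1.92 FPKM and *Gzmg* from 0.04 to 1.15 FPKM over the 9 libraries.

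The granzymes did not keep the order of libraries that the receptors had. *Wnk1f/f* replicate 2 was the highest control library for all 7 granzymes but for only 2 of the 27 other members. *Wnk1d/d* replicate 3 was the lowest *Wnk1d/d* library for *Gzmc*, *Gzmd*, *Gzme*, *Gzmf* and *Gzmg* and the highest for *Gzma*, while for 17 of the 27 other members the lowest was *Wnk1d/d* replicate 4. From the lowest to the highest library, FPKM spanned a ratio of 4.9 for *Gzma*, 5.25 for *Gzmb*, 9.48 for *Gzmc*, 8.82 for *Gzmd*, 8.52 for *Gzme*, 17.5 for *Gzmf* and 28.7 for *Gzmg*. The same ratio was 2.41 for *Ncr1*, 2.38 for *Nkg7* and 2.77 for *Klrd1*. *Gzmb* to *Gzmg* lie in a cluster on the minus strand of chromosome 14, from 56117626 to 56262260, and *Gzma* on chromosome 13. Transcripts of *Gzmd*, *Gzme*, *Gzmf* and *Gzmg* are 86.4% to 94.8% identical, and 5.73%, 4.75% and 6.83% of the 75-base stretches of *Gzmd*, *Gzme* and *Gzmg* are found in another granzyme, so reads could be divided between them and the single values of these 3 are less certain. *Gzma*, *Gzmb*, *Gzmc* and *Gzmf* share no such stretch with another gene.

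**Figure D4:**
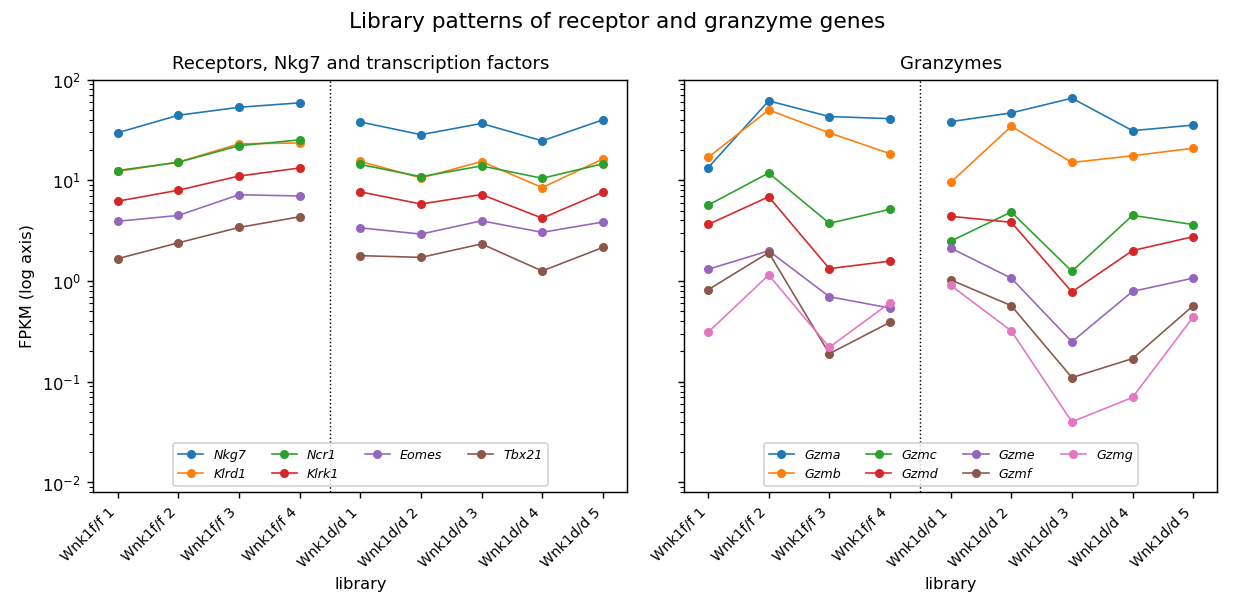
FPKM (log axis) in each library of 6 receptor, granule and transcription factor genes (left) and of the 7 granzymes (right). Lines only join the points of 1 gene within a genotype, since replicates have no order. The genes on the left have similar orders of libraries, with *Ncr1* spanning a ratio of 2.41 from lowest to highest, while each granzyme is highest among *Wnk1f/f* libraries in replicate 2 and *Gzmg* spans a ratio of 28.7.

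The other cytotoxic effectors included *Ctsw*, 1 of the 2 called members. *Ctsw* encodes cathepsin W, a cysteine protease found in NK cells and cytotoxic T cells. It was at 14.8, 22.1, 23.8 and 31.3 FPKM in the *Wnk1f/f* libraries and 13.5, 10.99, 15.1, 8.76 and 15.6 FPKM in the *Wnk1d/d* libraries. *Wnk1f/f* replicates 2 to 4 were above every *Wnk1d/d* library, and *Wnk1f/f* replicate 1 was within their range. Its mean fell from 22.96 ± 6.78 FPKM (SD, n = 4) to 12.8 ± 2.88 FPKM (SD, n = 5), a ratio of 0.557 with a log2 fold change of -0.78 (SE 0.22, limma adjusted p = 0.0320) and an exact two-sided permutation p of 0.0238. Without *Wnk1f/f* replicate 4 it was -0.62 (SE 0.21, limma adjusted p = 0.0828) and no longer called. *Nkg7*, a protein of the granule membrane and the most abundant member after *Gzma*, was at 29.7, 44.4, 53.2 and 58.95 FPKM in the *Wnk1f/f* libraries and 38.1, 28.5, 36.8, 24.7 and 39.97 FPKM in the *Wnk1d/d* libraries. *Prf1*, the pore-forming protein perforin, was at 3.99, 10.03, 7.45 and 7.04 FPKM in the *Wnk1f/f* libraries and 4.79, 7.06, 6.65, 4.73 and 4.94 FPKM in the *Wnk1d/d* libraries. *Fasl*, the death ligand, was at 1.14, 1.87, 2.71 and 2.48 FPKM in *Wnk1f/f* and 1.88, 1.16, 1.72, 1.08 and 1.58 FPKM in *Wnk1d/d*. *Nkg7* had the order of libraries seen for *Ncr1*, whereas *Prf1* was highest in replicate 2 of each genotype, as *Gzmb* was. The log2 fold changes of *Nkg7*, *Prf1* and *Fasl* were -0.44, -0.25 and -0.28, with limma adjusted p from 0.151 to 0.404, and -0.31, -0.24 and -0.20 without replicate 4. *Ifng*, the cytokine through which uterine NK cells act on arteries, was between 0.03 and 0.67 FPKM, its lowest in *Wnk1f/f* replicate 1 and its highest in *Wnk1f/f* replicate 4.

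Of the cytokine receptors and interleukin 15, 5 were tested, all with means below those of *Wnk1f/f*, and 0 were called by limma, with an unadjusted p under 0.05 for 2, and for 1 without *Wnk1f/f* replicate 4. *Il15* encodes the cytokine that NK cells need to survive and is made by other cells of the uterus. It was at 13, 15.8, 19.3 and 17.7 FPKM in the *Wnk1f/f* libraries and 15.1, 10.2, 16.9, 14.6 and 17.04 FPKM in the *Wnk1d/d* libraries. Every *Wnk1d/d* library but replicate 2 was within the *Wnk1f/f* range, and the log2 fold change was -0.15 (SE 0.16, limma adjusted p = 0.488) with a 95% interval of -0.50 to 0.19, and -0.12 without replicate 4. *Il15ra*, which presents the cytokine, was at 21.4, 20.5, 18.6 and 20.2 FPKM in the *Wnk1f/f* libraries and 12.02, 17.4, 18.6, 14.04 and 15.2 FPKM in the *Wnk1d/d* libraries. The genotypes did not overlap, though by as little as 18.65 in *Wnk1f/f* against 18.61 FPKM in *Wnk1d/d*. Its mean fell from 20.2 ± 1.15 FPKM (SD, n = 4) to 15.4 ± 2.62 FPKM (SD, n = 5), with a log2 fold change of -0.38 (SE 0.11, limma adjusted p = 0.0426) and an exact two-sided permutation p of 0.0317. The ratio of means was 0.765, short of the size needed for a call. Without replicate 4 the log2 fold change was -0.38 (SE 0.13, limma adjusted p = 0.0927). It spread less over the 9 libraries than any other member, with a ratio of 1.78 from the highest to the lowest. It did not share the library order of the NK receptors either, as *Wnk1f/f* replicate 1, the lowest control for most members, was its highest.

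*Il2rb*, the beta chain through which NK cells receive interleukin 15, was at 15.9, 23.4, 32.3 and 35.2 FPKM in the *Wnk1f/f* libraries and 16.7, 16.2, 18.6, 14.1 and 19.1 FPKM in the *Wnk1d/d* libraries. *Wnk1f/f* replicates 2 to 4 were above all *Wnk1d/d* libraries and replicate 1 below 4 of them. The log2 fold change was -0.57 (SE 0.21, limma adjusted p = 0.0717), and -0.42 (SE 0.20, limma adjusted p = 0.180) without replicate 4. *Il18r1* and *Il18rap* encode the chains of the receptor for interleukin 18, which with interleukin 12 drives interferon gamma. *Il18r1* was at 0.61, 2.12, 2.18 and 2.82 FPKM in *Wnk1f/f* and 2.76, 1.55, 1.81, 1.04 and 1.62 FPKM in *Wnk1d/d*, and *Il18rap* at 0.75, 1.09, 2.08 and 4.12 FPKM in *Wnk1f/f* and 1.71, 1.43, 1.64, 0.92 and 1.76 FPKM in *Wnk1d/d*. The lowest *Wnk1f/f* library for both was replicate 1 and the highest replicate 4. Their log2 fold changes were -0.05 and -0.16 with limma adjusted p of 0.907 and 0.71, and 0.10 and 0.14 without replicate 4. *Il12rb2*, the signalling chain of the interleukin 12 receptor, was between 0.59 and 0.92 FPKM in *Wnk1f/f* and between 0.40 and 0.60 FPKM in *Wnk1d/d*, below the filter.

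The transcription factors and signalling proteins had the lowest median of the roles, -0.51, with 5 of 5 below 0, and a median of -0.35 without replicate 4. *Eomes*, the T-box factor that NK cells need to mature, was the other called member. It was at 3.93, 4.49, 7.21 and 7.0 FPKM in the *Wnk1f/f* libraries and 3.38, 2.93, 3.97, 3.05 and 3.86 FPKM in the *Wnk1d/d* libraries. *Wnk1f/f* replicate 1 lay below *Wnk1d/d* replicate 3, and the other 3 *Wnk1f/f* libraries were above all of *Wnk1d/d*. Its mean fell from 5.66 ± 1.69 FPKM (SD, n = 4) to 3.44 ± 0.467 FPKM (SD, n = 5), a ratio of 0.608 with a log2 fold change of -0.56 (SE 0.17, limma adjusted p = 0.0403) and an exact two-sided permutation p of 0.0159. Without replicate 4, which was at 7.0 FPKM and below replicate 3, it was -0.46 (SE 0.17, limma adjusted p = 0.109) and no longer called. The *Wnk1d/d* values were close together, from 2.93 to 3.97 FPKM. *Tbx21* (T-bet), the factor that acts beside Eomes, was at 1.67, 2.4, 3.41 and 4.35 FPKM in the *Wnk1f/f* libraries and 1.79, 1.72, 2.34, 1.26 and 2.16 FPKM in the *Wnk1d/d* libraries. Its log2 fold change was -0.44 (SE 0.20, limma adjusted p = 0.142), and -0.27 (SE 0.18, limma adjusted p = 0.338) without replicate 4. *Txk*, a kinase of the Tec family, was at 2.86, 3.82, 4.87 and 6.35 FPKM in the *Wnk1f/f* libraries and 3.24, 2.29, 3.1, 2.08 and 3.15 FPKM in the *Wnk1d/d* libraries. *Samd3*, a gene of unsettled function used here as an NK cell marker, was at 4.06, 4.08, 8.16 and 8.9 FPKM in *Wnk1f/f* and 4.27, 2.6, 3.83, 1.85 and 4.17 FPKM in *Wnk1d/d*. *Styk1*, a kinase-like membrane protein encoded near the NK receptor genes, was at 2.63, 4.31, 4.64 and 3.94 FPKM in *Wnk1f/f* and 4.51, 3.16, 2.75, 1.92 and 2.54 FPKM in *Wnk1d/d*, and its *Wnk1d/d* replicate 1 was above 3 of the 4 *Wnk1f/f* libraries. *Samd3* had the largest difference of this role, -0.72 (SE 0.27, limma adjusted p = 0.0788), and for *Txk* and *Styk1* the log2 fold changes were -0.51 and -0.31 with limma adjusted p of 0.0755 and 0.258. Without replicate 4, *Txk*, *Samd3* and *Styk1* were at -0.35, -0.55 and -0.30.

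The members moved from mouse to mouse within a genotype as well. *Wnk1f/f* replicate 1 was the lowest control library for 24 of the 34 members and *Wnk1f/f* replicate 4 the highest for 18. *Wnk1d/d* replicate 4 was the lowest *Wnk1d/d* library for 18 and *Wnk1d/d* replicate 2 for 9. The 9 members called lower without *Wnk1f/f* replicate 1, against 4.58% of all entries, were *Ncr1*, *Klrg1*, *Cd7*, *Nkg7*, *Ctsw*, *Il2rb*, *Eomes*, *Tbx21* and *Txk*.

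Other genes of the same cells and pathways were counted from lists that do not hold the members, beside the 5.18% of all entries called lower and 5.09% called higher. Where an unadjusted p is counted for these lists it is in either direction, which held for 38.4% of all entries with all libraries and 31.3% without *Wnk1f/f* replicate 4. Of 17 tested further NK receptors, 3 were called lower by limma and 0 higher. *Tigit*, an inhibitory receptor for nectins, was among them (4.78 against 2.2 FPKM, log2 fold change -0.84, limma adjusted p = 0.00366, and -0.75, limma adjusted p = 0.0106 without *Wnk1f/f* replicate 4). *Lag3*, an inhibitory receptor for class II molecules, was another (4.06 against 1.68 FPKM, log2 fold change -0.89, limma adjusted p = 0.00637, and -0.74, limma adjusted p = 0.0104 without it). Their *Wnk1d/d* libraries, from 2.05 to 2.45 FPKM for *Tigit* and from 1.32 to 1.97 FPKM for *Lag3*, were all below the lowest *Wnk1f/f* library, at 3.49 and 3.1 FPKM. *Cd96* (1.85 against 1.02 FPKM, log2 fold change -0.47, limma adjusted p = 0.0486) was not called without that library. These 3 receptors are also used by T cells. Of 16 receptor adaptors and proximal signalling proteins, 4 were called lower and 0 higher, with 16 of 16 below 0, and 1 was called lower without replicate 4. *Zap70*, the kinase that binds phosphorylated receptor tails, was the one that remained called (8.33 against 4.596 FPKM, log2 fold change -0.71, limma adjusted p = 0.0209, and -0.54, limma adjusted p = 0.0395).

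Of 17 transcription factors of NK cells and innate lymphocytes, 5 were called lower and 0 higher, and 3 of 15 without replicate 4. The largest were *Prdm1* (22.8 against 12.2 FPKM, log2 fold change -0.89, limma adjusted p = 0.0156), *Tcf7* (34.5 against 20.99 FPKM, log2 fold change -0.70, limma adjusted p = 0.00550) and *Ets1* (32.1 against 19.5 FPKM, log2 fold change -0.70, limma adjusted p = 0.00732), and all 3 of these were also called without it. *Prdm1* and *Ets1* are also transcribed outside lymphocytes. Of 10 genes of interleukin 2 and interleukin 15 receptor signalling, 2 were called higher, *Socs2*, a feedback inhibitor (21.5 against 37.9 FPKM, log2 fold change 0.79, limma adjusted p = 0.00604), and *Stat5a*, the factor the receptor activates (14.4 against 23.4 FPKM, log2 fold change 0.65, limma adjusted p = 0.0158), and *Il2rg*, the common gamma chain, was called lower (20.03 against 12.3 FPKM, log2 fold change -0.65, limma adjusted p = 0.0136). Without replicate 4 the 2 higher calls stayed and *Il2rg* was not called (-0.52, limma adjusted p = 0.0255). In whole uterus, the cells behind the calls of *Socs2* and *Stat5a* are not known. Of 7 genes of the interleukin 12 and interleukin 18 axis limma called 0, with or without replicate 4, and an unadjusted p under 0.05 was found for 2 and then for 1. The most abundant genes of the axis were *Tyk2* (17.7 against 14.3 FPKM, log2 fold change -0.30, limma adjusted p = 0.0483, and -0.23, limma adjusted p = 0.128 without replicate 4) and *Il18* (13.8 against 14.9 FPKM, log2 fold change 0.09, limma adjusted p = 0.697, and 0.15, limma adjusted p = 0.565).

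Among 12 chemoattractants and their receptors, *Cxcr4*, which holds lymphocytes near its ligand CXCL12, was called lower with and without replicate 4 (11.3 against 4.204 FPKM, log2 fold change -1.23, limma adjusted p = 0.00145, and -1.13, limma adjusted p = 0.00411). *Cxcl14*, a chemokine of the uterus, was called higher (71.3 against 134 FPKM, log2 fold change 0.90, limma adjusted p = 0.00767, and 1.003, limma adjusted p = 0.0114 without replicate 4). Of 8 genes of circulating NK cells, 3 were called lower, *Klf2*, *Cx3cr1* and *S1pr1*, and *Cma1* higher, both with and without replicate 4. *Klf2* was the largest of the 3 (62.9 against 35.2 FPKM, log2 fold change -0.83, limma adjusted p = 0.00269) and is also a gene of endothelium, and *Cma1* (6.54 against 12.9 FPKM, log2 fold change 0.88, limma adjusted p = 0.00144) is better known as a mast cell protease. In whole uterus, the cells behind the calls of *Cx3cr1*, *S1pr1* and *Cxcr4* are not known either. Of 11 genes of tissue-resident lymphocytes, *Spp1* (osteopontin) was called higher (22.6 against 69.1 FPKM, log2 fold change 1.42, limma adjusted p = 0.0298). *Xcl1*, a chemokine that NK cells secrete, was called lower (27.5 against 15.7 FPKM, log2 fold change -0.77, limma adjusted p = 0.0398). Without replicate 4 limma called 0 of the 11, with an unadjusted p under 0.05 for 3. The cells behind the *Spp1* call are not known from whole uterus. Of 14 ligands of NK receptors, *Tnfrsf14*, the ligand of CD160, was called lower (16.3 against 10.6 FPKM, log2 fold change -0.57, limma adjusted p = 0.0329) and 0 were called by limma without replicate 4 (an unadjusted p under 0.05 for 1).

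Of 7 inhibitors of granzymes and perforin, *Serpinb1a* (32.7 against 18.96 FPKM, log2 fold change -0.76, limma adjusted p = 0.00327) and *Serpina3n* (92.2 against 54.9 FPKM, log2 fold change -0.76, limma adjusted p = 0.00965) were called lower and *Serpinb6b* higher (9.04 against 14.4 FPKM, log2 fold change 0.60, limma adjusted p = 0.0116), the same 3 as without replicate 4. *Ogn* was the 1 of 8 growth factors of the list for uterine NK cells called higher (34.5 against 79.4 FPKM, log2 fold change 1.22, limma adjusted p = 0.00550), and 1 other was called lower without replicate 4. Of 9 genes of early decidual stroma, *Cebpb* was called higher (28.1 against 47.3 FPKM, log2 fold change 0.74, limma adjusted p = 0.0302) and *Hoxa11* lower (221 against 148 FPKM, log2 fold change -0.59, limma adjusted p = 0.00651), and limma called 0 without replicate 4, with an unadjusted p under 0.05 for 4. *Hoxa11* was then at -0.55 (limma adjusted p = 0.0206), short only of the ratio needed for a call, and *Cebpb* at 0.59 (limma adjusted p = 0.0776).

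Markers of other cell types moved between the genotypes, and their part in the members' values was not tested. Of 7 smooth muscle markers 7 were called higher, summing to between 2970 and 6680 FPKM in *Wnk1f/f* and between 7490 and 14100 FPKM in *Wnk1d/d*, and 4 of 7 were called without replicate 4. Of 7 endothelial markers 6 were called lower, summing to between 341 and 374 FPKM in *Wnk1f/f* and between 146 and 281 FPKM in *Wnk1d/d*, and 4 without replicate 4. Of 4 tested T cell markers limma called 0, and 0 had an unadjusted p under 0.05, as for the 2 tested without replicate 4, with *Cd3g* at 9.43 FPKM in *Wnk1f/f* replicate 4 and at 0.09 to 2.14 FPKM elsewhere. Of 4 B cell and plasma cell markers *Mzb1* was called lower (5.82 against 3.23 FPKM, log2 fold change -0.69, limma adjusted p = 0.00661), and of 10 macrophage and dendritic cell markers *Itgax* lower (4.33 against 1.398 FPKM, log2 fold change -1.08, limma adjusted p = 0.0123) and *Cd14* higher (50.02 against 102 FPKM, log2 fold change 1.02, limma adjusted p = 0.00866). These 3 genes were called in the same direction without replicate 4. Of 6 mast cell and basophil markers 3 were called higher, *Hdc*, *Cpa3* and *Mcpt4*, and 2 without replicate 4, where *Hdc* was not called (0.91, limma adjusted p = 0.115). Of 8 epithelial markers 1 was called higher, *Ltf*, with and without replicate 4. Of 5 fat and liver markers 1 was called higher, *Fabp4*, and 2 of 3 were without replicate 4. Of 2 neutrophil markers and of 1 marker of lymphoid organ stroma that were tested, limma called 0, and 0 had an unadjusted p under 0.05, with and without replicate 4.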

How the data were processed

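Uterine RNA had been extracted with TRIzol, and libraries made with the TruSeq RNA kit were sequenced on an Illumina HiSeq as paired reads of 75 nt. Per the labels, reads were processed with TopHat2 2.0.4 and Cufflinks 2.0.2 on mm10; the gene annotation is not given in the sources used here. The values analysed are FPKM per gene symbol and library as deposited by the authors, so the number of reads is unknown and no interval based on counts is given. From the steps between low values, 1 fragment was worth 0.742 (*Wnk1f/f* replicate 4) to 1.0 times its worth in *Wnk1f/f* replicate 1.

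The members and the other gene lists were chosen with earlier results of these data known. Entries with a mean above 1 FPKM in at least 1 genotype were compared on log2(FPKM + 1) with limma 3.58.1 (R 4.3.3; unpaired, trended prior variance), with Benjamini-Hochberg adjustment over all entries tested. The pseudocount was 1. A call is an adjusted p under 0.05 with a ratio of means of at least 1.5. The study's count model needs reads and was not run. For single members an exact two-sided permutation test of the difference of means was added. Tested members were given in every library, those below the filter by range unless called without a filter, and of each other list up to 3 called genes with the largest change, or the 2 most abundant where none was called. On simulated data with 200 of 14728 genes changed by 2 on the log2 scale, larger than any difference among the members, 98% were recovered. Alternatives were other pseudocounts, filters, scalings, limma options, library weights, ratio thresholds, the replicate number as a block, and leaving out each library. Positions and transcripts came from GENCODE M21 and promoter sequences from RefSeq. Within a genotype the correlation of libraries over all tested entries was 0.942 to 0.969.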

Additional observations from a re-analysis of the deposited data

Results flagged for a closer look

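In *Wnk1f/f*, the summed level of fat and liver markers in replicate 4 was 116 FPKM, while the other 3 libraries were at 10.3 to 12.2 FPKM. The gap to the nearest library took 0.982 of the whole range of the group, above Dixon's 95% critical value for 4 samples. It was the only one of 82 sets of values tested in this way to pass, and chance alone passes about 1 in 20. The members' own levels did not pass in any group. Neither did the summed markers of T cells, of B cells and plasma cells or of lymphoid organ stroma. Within the fat and liver list, *Fabp4* was lower in *Wnk1f/f* replicate 4, at 1.81 FPKM, than in the other *Wnk1f/f* libraries, at 2.44 to 5.69 FPKM.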

How the results depend on the processing

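Of 663 values of single members under 23 other settings, 615 kept their direction and their side of the threshold, 24 lost a call, 10 gained one and 14 turned direction. The 2 members called lower became 1 with no filter (919 of all 21949 entries called lower) and 0 with library weights (843 of 14728). The count was 0 with a ratio of at least 2, where only 218 of 14728 entries were called lower. By the adjusted p only it was 4 (against 11.0% of all entries). It was 0 with no filter and without *Wnk1f/f* replicate 4 (2.36%), and 0 to 9 when 1 library was left out (3.39% to 6.82%). With the replicate number as a block, 0 members were called, and over all entries 132 were called higher and 86 lower, against 750 and 763; libraries of the same number come from different mice and the correlations of their deviations were -0.0867, -0.00293, 0.0221 and -0.268, so the numbers were not taken as pairs. In that fit the other lists held 3 genes called lower and 4 higher, and *Wnk1* was at -0.52 with a limma adjusted p of 0.0518, no longer under 0.05. Leaving out 1 library gave 25 to 29 members below 0, medians from -0.59 to -0.32, 0 members called higher, 19 to 31 genes of the other lists called lower and 14 to 21 higher, and -0.55 to -0.50 for *Wnk1*. At a filter of 5 FPKM, 16 of 17 members were below 0. The other lists held 5 genes called lower and 11 higher at a ratio of at least 2, and 13 and 11 with no filter and without *Wnk1f/f* replicate 4. Direction turned only for members that were not called: when 1 library was left out, *Gzma* ran from -0.18 (without *Wnk1f/f* replicate 1) to 0.53, *Gzmd* from -0.38 to 0.21 and *Gzme* from -0.23 to 0.12 (both above 0 without *Wnk1f/f* replicate 2 or *Wnk1d/d* replicate 3), *Il18r1* from -0.31 to 0.10 (above 0 without *Wnk1f/f* replicate 2, 3 or 4 or *Wnk1d/d* replicate 4) and *Il18rap* from -0.38 to 0.14 (above 0 without *Wnk1f/f* replicate 4). *Il18r1* was at 0.0023 with library weights, and with no filter and without *Wnk1f/f* replicate 4 *Ifng* was at 0.13, *Il18r1* at 0.10 and *Il18rap* at 0.14. The cause was not tested. With 4 and 5 mice and no read counts, differences of the granzymes as wide as their intervals could not be seen.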
